A study of Drosophila melanogaster with 21 samples.

Results

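The genes described here encode the membrane skeleton and the axonal microtubule proteins of the fly brain. There were 8 of them among the 17612 genes of the count table, namely hts, alpha-Spec, beta-Spec, kst, Ank, Ank2, futsch and tau. The rule names them by function and matches them by gene symbol, with hts included as a candidate target of miR-34. The rule uses no measured value, although the genes were chosen with earlier results of these data known. Every one had a single row and passed the filter on low counts in both experiments.

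The spectrin skeleton is a mesh under the plasma membrane. Rods of alpha and beta spectrin meet at short actin filaments, which adducin caps and holds to spectrin, and ankyrin fastens the mesh to membrane proteins. In axons this mesh forms regularly spaced rings, and inside them a core of microtubules, stabilised by microtubule-associated proteins such as the fly MAP1B homolog Futsch and Tau, carries cargo between the cell body and the synapse. In Drosophila, hts encodes adducin, alpha-Spec the only alpha spectrin, beta-Spec the conventional beta spectrin that binds ankyrin, and kst the beta-heavy spectrin best known from the apical membrane of epithelia. Ank encodes the broadly expressed ankyrin, and Ank2 a neuronal ankyrin with very long isoforms that are found in axons and at synapses.

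PolyA-selected RNA was sequenced from brains of male flies, with 20 brains per replicate and 3 biological replicates per group, to ask how the transcriptome of the miR-34 mutant brain differs from that of its control and how the brain changes with age. Set 1 held 20d miR-34 mutant, 20d control, 3d miR-34 mutant and 3d control brains. Set 2 held control brains only, at 3d, 20d and 50d. Controls were the w1118 stock 5905 and mutants were w1118;;miR-34, a deletion of the microRNA, so that both genotypes carried the w1118 allele and the mutant was a single line. The study's text does not state whether the rest of the genome was shared. Other differences between the lines therefore cannot be told apart from the loss of miR-34. Whole brains were sequenced, and fewer cells of a type and less RNA per cell cannot be told apart in such data.

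Total counts ran from 17932132 to 23109013 per library in set 1 and from 30890607 to 43713430 in set 2. The lowest count of any member in any library was 2623, for kst, so counting error was small beside the spread between replicates. Values below are CPM, counts scaled to library size with TMM factors. The genotype labels were checked on lncRNA:CR43459, the transcript that hosts mir-34, which stood at 759 to 903 CPM in 20d mutant brains against 15.6 to 19.1 CPM in 20d control brains. The 3d mutants had 976 to 1088 CPM of it and the 3d controls 8.63 to 10.4 CPM. All 6 neuronal markers (elav, nSyb, brp, Syt1, Syn and Csp) and all 6 glial markers were above 3 counts in every group, as were the 7 photoreceptor markers. The photoreceptor markers summed to 15648.5 to 35885.6 CPM in 20d mutants and 20128.0 to 34539.0 CPM in 20d controls. At 3d they summed to 21925.5 to 30734.1 CPM in mutants and 25946.8 to 36026.1 CPM in set 1 controls. Of the 7, 2 were called lower in mutants than in controls at each age and none higher. Of all genes 31.4% were called at 3d, 15% lower, and 32.1% at 20d, 15.4% lower. Muscle markers summed to at most 167 CPM in any library, whereas the 6 fat body markers reached 4662 CPM, with Lsp1alpha at no more than 3 counts in both mutant groups and Fbp1 in the 3d mutants.

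The transcripts of all 8 genes were abundant. Ank2 and futsch ranked at 55 and 79 by mean level among the 9961 genes tested in set 1, and kst, the lowest member, ranked at 1231. These ranks favour long genes, since a long transcript yields more fragments. Ank2 has 46969 bases of annotated exon over 22 transcripts on chromosome arm 3L, and tau has 7252 bases over 14 transcripts on 3R (Ensembl release 115, build BDGP6.54). Levels were therefore compared between genes as CPM per kb of exon. On that scale beta-Spec, alpha-Spec and Ank were the highest in every group. In 3d control brains of set 1, beta-Spec stood at 101 ± 4.40 CPM per kb, Ank at 92.4 ± 1.47 and alpha-Spec at 90.3 ± 2.55 (SD, n = 3), and the ranges of Ank and alpha-Spec overlapped. futsch at 47.1 ± 3.03 and tau at 44.1 ± 2.00 CPM per kb followed, with overlapping ranges. Ank2 at 32.3 ± 2.61, hts at 26.5 ± 1.84 and kst at 13.9 ± 1.54 CPM per kb then stood apart from one another. kst was the lowest in all 7 groups, and Ank was the highest only in 20d mutant brains, at 122 ± 5.40 CPM per kb. Per kb of coding sequence tau, whose exons are mostly untranslated, moved into the first 3 in every group. By that length Ank was the highest in set 1 controls too, at 124 ± 1.97 CPM per kb at 3d and 126 ± 3.66 at 20d. Its place as the highest in 20d mutants alone therefore held only per kb of exon.

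hts is on chromosome arm 2R and overlaps an antisense gene, asRNA:CR43430, over 13.6% of its exon bases, but that gene had 0 or 1 counts in every library. Ank2 shares 12.5% of its exon bases with CG44195 on the same strand, which had 146 to 401 counts, and futsch shares 5.09% with the taste receptor gene Gr2a, which had 1 to 35. alpha-Spec and beta-Spec share 2.71% and 2.08% of their exon bases with other genes, Ank shares 9.10% with a transposable element and tau 1.24% with mir-1001, and kst shares none. Reads from shared exons may be missing from the counts of these members. The strand setting of the counting was not given in the sources used here.

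In 3d brains, 4 of the 8 genes were higher in miR-34 mutants than in controls and none was lower (quasi-likelihood test of edgeR, Benjamini-Hochberg adjusted p under 0.05 over all genes tested). In this comparison 31.4% of all genes were called, 16.5% higher and 15% lower. In 20d brains, 2 of the 8 were higher in mutants and 2 were lower, where 32.1% of all genes were called, 16.6% higher and 15.4% lower. Among the 8, only hts was called higher at both ages.

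**Figure D1:**
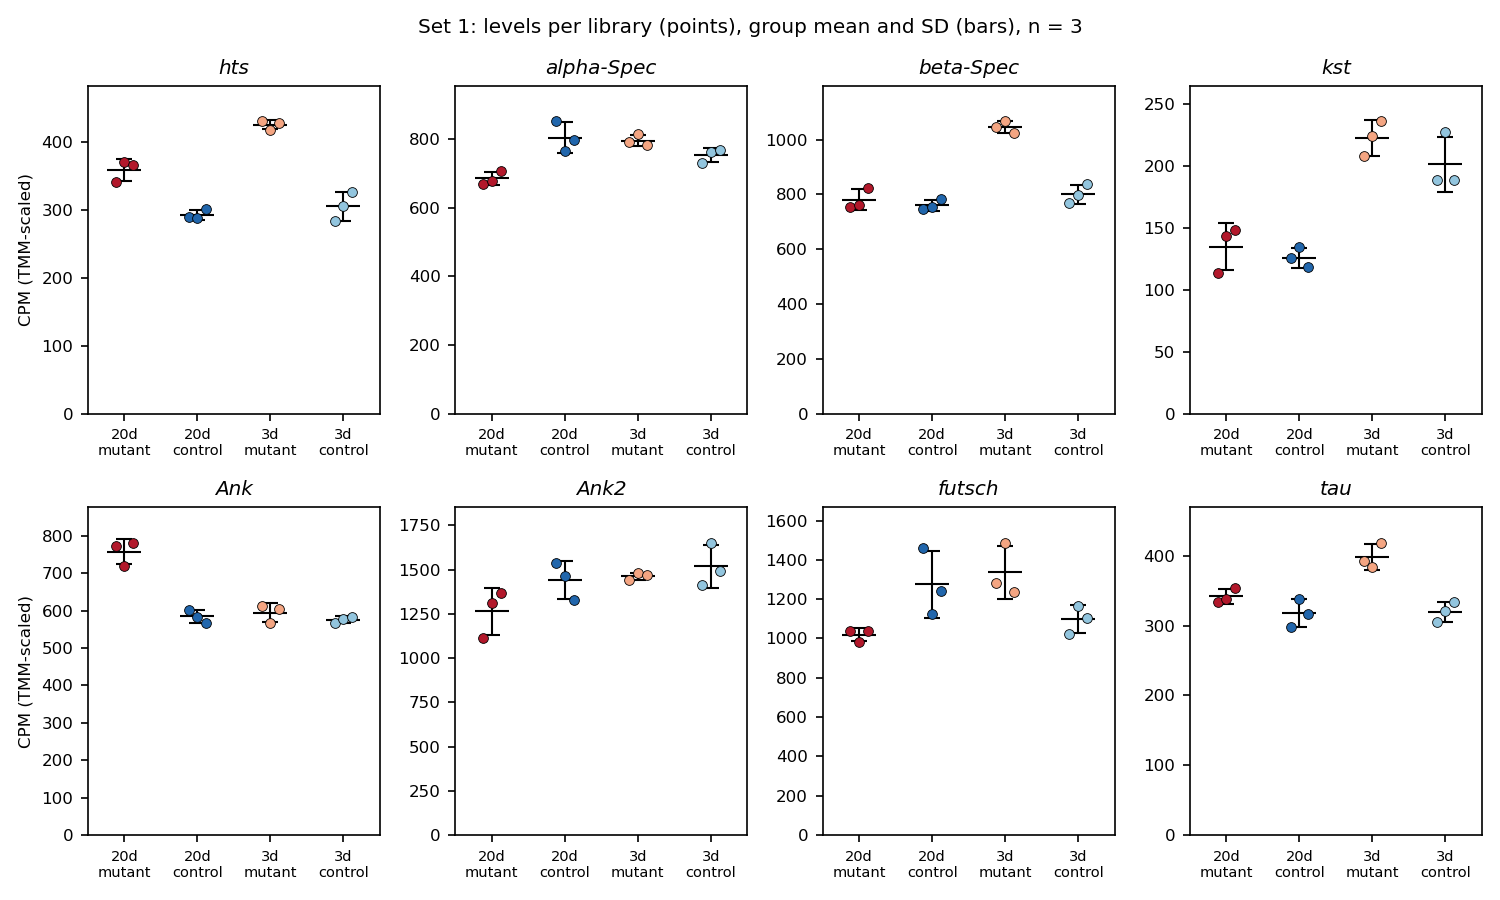
Level of each of the 8 genes in the 12 libraries of set 1, in CPM after TMM scaling on axes that start at 0. Points are libraries, and the horizontal bars with whiskers are the group mean and SD (n = 3). The 20d mutant libraries stand above the 20d controls for hts and Ank and below them for alpha-Spec and futsch, whereas the 3d mutant libraries stand above the 3d controls for hts, beta-Spec, futsch and tau.

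hts, the adducin gene, measured 341, 372 and 366 CPM in the 20d mutant brains, against 290.3, 288 and 302 CPM in the 20d control brains. At 3d it measured 431, 418 and 429 CPM in mutants, against 285, 306 and 327 CPM in controls. Mutant and control libraries did not overlap at either age, and the 3d mutants were the highest of the 12 libraries. At 3d the log2 fold change was 0.48 ± 0.058 (SE), or 39.4% more in mutants (edgeR, adjusted p = 3.7e-05). At 20d it was 0.29 ± 0.058 (adjusted p = 0.0016). With age, hts fell by 0.25 on the log2 scale in mutants (SE 0.058, edgeR, adjusted p = 0.0035), while in controls the log2 fold change was -0.06 ± 0.058 (adjusted p = 0.49). The mutant-control difference was smaller at 20d than at 3d by 0.19 on the log2 scale, which did not pass the test over all genes (edgeR, adjusted p = 0.13).

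alpha-Spec, the alpha partner of both beta spectrins, had 671, 679 and 708 CPM in 20d mutant brains, against 853, 765 and 796 CPM in 20d control brains. The younger brains had 791, 814 and 782 CPM in mutants, against 729, 762 and 769 CPM in controls. The 20d mutants were thus the lowest 3 of the 12 libraries. In 20d mutants alpha-Spec fell by 0.23 on the log2 scale relative to 20d controls (SE 0.055, edgeR, adjusted p = 0.0054) and by 0.21 relative to 3d mutants (adjusted p = 0.0059). At 3d the groups did not overlap, but the log2 fold change of 0.08 ± 0.055 did not pass the test (edgeR, adjusted p = 0.30).

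beta-Spec had 754, 763 and 824 CPM in 20d mutant brains, against 746, 753 and 783 CPM in 20d control brains. At 3d it had 1047, 1068 and 1025 CPM in mutants, against 768, 799 and 837 CPM in controls. Here the 3d mutants stood apart, and the other 9 libraries lay together. In 3d mutants beta-Spec was 30.7% higher than in 3d controls (log2 fold change 0.39 ± 0.056, edgeR, adjusted p = 0.00016). At 20d the log2 fold change was 0.04 ± 0.056, with overlapping groups (edgeR, adjusted p = 0.66). Between 3d and 20d it fell by 0.42 on the log2 scale in mutants (SE 0.056, edgeR, adjusted p = 3.6e-05), whereas in controls the log2 fold change with age was -0.07 ± 0.056 (adjusted p = 0.36).

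kst, the second partner of alpha spectrin, had 113, 143 and 148 CPM in 20d mutant brains, against 125, 134 and 118 CPM in 20d control brains. In 3d brains kst had 208, 224 and 236 CPM in mutants, against 189, 227 and 188 CPM in controls. Genotypes overlapped at both ages, and every 20d library was lower than every 3d library. kst fell with age by 0.72 on the log2 scale in mutants (SE 0.10, edgeR, adjusted p = 9.4e-05) and by 0.68 in controls (SE 0.10, adjusted p = 0.00056), which made it the only one of the 8 genes called with age in set 1 controls, where 24.6% of all genes were called, 11.3% higher and 13.3% lower. The log2 fold changes between genotypes were 0.10 ± 0.10 at 20d (edgeR, adjusted p = 0.50) and 0.14 ± 0.10 at 3d (adjusted p = 0.31).

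The ankyrins did not move together. Ank had 772, 719 and 782 CPM in 20d mutant brains, against 602, 584 and 568 CPM in 20d control brains. At 3d it had 613, 566 and 604 CPM in mutants, against 566, 577 and 584 CPM in controls. Only the 20d mutants stood out, above all 9 other libraries. Ank was 29.6% higher in 20d mutants than in 20d controls (log2 fold change 0.37 ± 0.054, edgeR, adjusted p = 0.00013), and it was the only member that rose with age in mutants (0.35 ± 0.054, adjusted p = 0.00014). In controls its log2 fold change with age was 0.02 ± 0.054 (edgeR, adjusted p = 0.80), and at 3d its log2 fold change between genotypes was 0.05 ± 0.054 (adjusted p = 0.55). Its gene lies on chromosome 4, at 115074 to 129849 on the minus strand.

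Ank2, the axonal ankyrin, had 1114, 1310 and 1369 CPM in 20d mutant brains, against 1537, 1465 and 1327 CPM in 20d control brains. In 3d brains the values were 1441, 1480 and 1468 CPM in mutants, against 1413, 1652 and 1489 CPM in controls. Genotypes overlapped at both ages, with log2 fold changes of -0.19 ± 0.084 at 20d (edgeR, adjusted p = 0.098) and -0.05 ± 0.084 at 3d (adjusted p = 0.66). All 20d mutant libraries were below all 3d mutant libraries, yet this log2 fold change of -0.21 ± 0.084 missed the threshold (edgeR, adjusted p = 0.054). It passed in DESeq2 (-0.22, adjusted p = 0.039), without the filter on low counts (adjusted p = 0.049) and in a fit of the mutant groups alone (adjusted p = 0.0497).

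futsch had 1036, 983 and 1040 CPM in 20d mutant brains, against 1459, 1125 and 1243 CPM in 20d control brains. Its 3d values were 1282, 1488 and 1239 CPM in mutants, against 1024, 1164 and 1107 CPM in controls. Mutants were therefore lower than controls at 20d and higher at 3d, with no overlap at either age. The log2 fold change was -0.32 ± 0.093 at 20d (edgeR, adjusted p = 0.017) and 0.28 ± 0.093 at 3d (adjusted p = 0.033). Both calls rested on few libraries. The 3d call was lost without 3d control replicate 1 (log2 fold change 0.24) or 3 (0.29) and without 3d mutant replicate 1 (0.31) or 2 (0.20). At 20d the call was lost without 20d control replicate 1 (-0.22) or 20d mutant replicate 2 (-0.30). In mutants futsch fell by 0.39 on the log2 scale with age (SE 0.093, edgeR, adjusted p = 0.0038), against a log2 fold change of 0.22 ± 0.093 in controls (adjusted p = 0.11).

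tau had 334, 338 and 354 CPM in 20d mutant brains, against 298, 338 and 317 CPM in 20d control brains. At 3d it had 393, 383 and 419 CPM in mutants, against 304, 321 and 333 CPM in controls. As for beta-Spec, the 3d mutants were the 3 highest libraries. tau was 24.6% higher in 3d mutants (log2 fold change 0.32 ± 0.060, edgeR, adjusted p = 0.0013) and fell by 0.22 on the log2 scale between 3d and 20d in mutants (SE 0.060, adjusted p = 0.0087). At 20d the genotypes overlapped (log2 fold change 0.11 ± 0.060, edgeR, adjusted p = 0.20), and in controls the log2 fold change with age was -0.01 ± 0.060 (adjusted p = 0.94).

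Over the 8 genes, age in mutants gave the most calls, with 1 higher and 6 lower, where 46% of all genes were called, 22.8% higher and 23.2% lower. All 8 separated the 20d from the 3d mutant libraries, as did 57.4% of all genes. When libraries were scaled by their totals alone, the median of all genes rose by 0.16 on the log2 scale in this comparison, and 3 of the 7 calls remained, those of beta-Spec, kst and Ank. At 3d, 5 of the 8 separated mutants from controls (48.8% of all genes), at 20d 4 did (42.7%), and with age in controls 1 did (38.2%). The comparisons share groups, and the 3d mutant values enter both the genotype comparison at 3d and the age comparison in mutants. Relative to all genes, the median log2 fold change of the 8 was 0.21 (all genes -0.02) in 3d mutants against 3d controls, 0.07 (-0.01) in 20d mutants against 20d controls, -0.23 (0.02) with age in mutants and -0.03 (0.00) with age in controls.

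**Figure D2:**
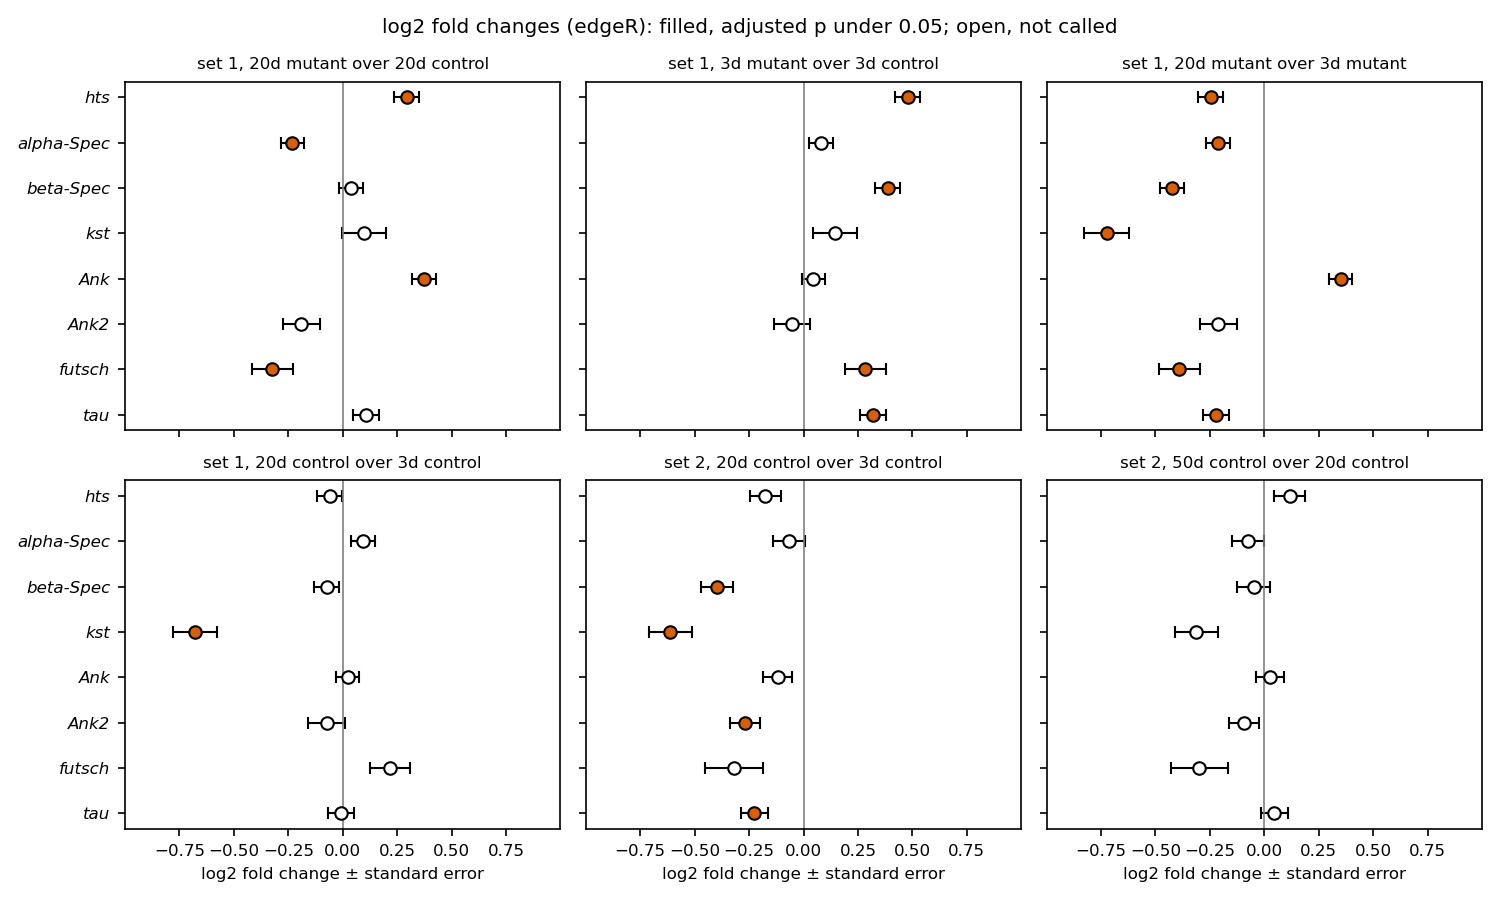
log2 fold changes of the 8 genes with their standard errors in 4 comparisons of set 1 and 2 of set 2, from edgeR (n = 3 libraries per group). Filled points passed an adjusted p of 0.05 and open points did not. In 20d against 3d mutants 7 of 8 points are filled and Ank alone lies to the right of 0, while in 20d against 3d controls of set 1 only kst is filled.

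Neuronal and glial markers were also called in these comparisons. The summed level of the 6 neuronal markers ran from 5706 to 5855 CPM in 20d mutants, 5051 to 5533 CPM in 20d controls, 8254 to 8460 CPM in 3d mutants and 5353 to 5911 CPM in 3d controls. At 3d 5 of the 6 were called higher in mutants, and at 20d 3 of 6. With age 6 of 6 were lower in mutants and 1 of 6 in controls. The 6 glial markers summed to 4141 to 4233 CPM in 20d mutants, 3817 to 3931 CPM in 20d controls, 6639 to 6910 CPM in 3d mutants and 5064 to 5878 CPM in 3d controls. Of these 6, 4 were called higher and 1 lower in 3d mutants, and 3 higher and 2 lower in 20d mutants. With age 1 was higher and 4 were lower in mutants. In set 1 controls 4 were lower with age, where kst was the only member called. Of all genes 31.4% were called between genotypes at 3d and 32.1% at 20d. With age 46% were called in mutants and 24.6% in controls. The 3d mutants were thus highest for both lists, as they were for hts, beta-Spec and tau. At 20d alpha-Spec and futsch were lower in mutants than in controls, unlike both sums, and Ank was highest in 20d mutants. Genotypes overlapped for Ank2 and kst at both ages. The part of the markers in these results was not tested.

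The difference between genotypes changed with age for 4 of the 8 genes by the interaction term of the same fit, which called 18.6% of all genes, 8.29% upwards and 10.3% downwards. From 3d to 20d the mutant-control difference grew for Ank, by 0.33 ± 0.076 on the log2 scale (edgeR, adjusted p = 0.0094). For beta-Spec (-0.35 ± 0.079, adjusted p = 0.0082), alpha-Spec (-0.31 ± 0.078, adjusted p = 0.014) and futsch (-0.61 ± 0.13, adjusted p = 0.0067) it moved downwards. The pattern differed between these genes. In mutants Ank was called higher at 20d and not at 3d, beta-Spec higher at 3d and not at 20d, alpha-Spec lower at 20d and not at 3d, and futsch higher at 3d and lower at 20d. Each of the 4 was called in 12 of 12 fits that left out 1 library. The interaction was not called for hts, tau (-0.21 ± 0.085, edgeR, adjusted p = 0.10), Ank2 (-0.14 ± 0.12, adjusted p = 0.46) or kst (-0.05 ± 0.14, adjusted p = 0.86).

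In set 2, control brains alone were followed to 50d. At 20d 4 of the 8 genes were lower than at 3d and none was higher, where 39.2% of all genes were called, 19.3% higher and 19.9% lower. At 50d 5 were lower than at 3d and none was higher, where 50.8% of all genes were called, 25.9% higher and 24.9% lower. Between 20d and 50d the main edgeR fit called none of the 8, where it called 9.72% of all genes, 5.51% higher and 4.21% lower. Of the 8, 2 had an unadjusted p under 0.05. DESeq2 called 1, kst, and edgeR with a replicate block called kst and futsch. Over all genes these fits called 1356 and 1282, against 1023 in the main fit. The libraries of the later age did not overlap those of the earlier age for 6 of the 8 genes at 20d against 3d (51.5% of all genes), 5 at 50d against 3d (59.2%) and 2 at 50d against 20d (28.8%).

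**Figure D3:**
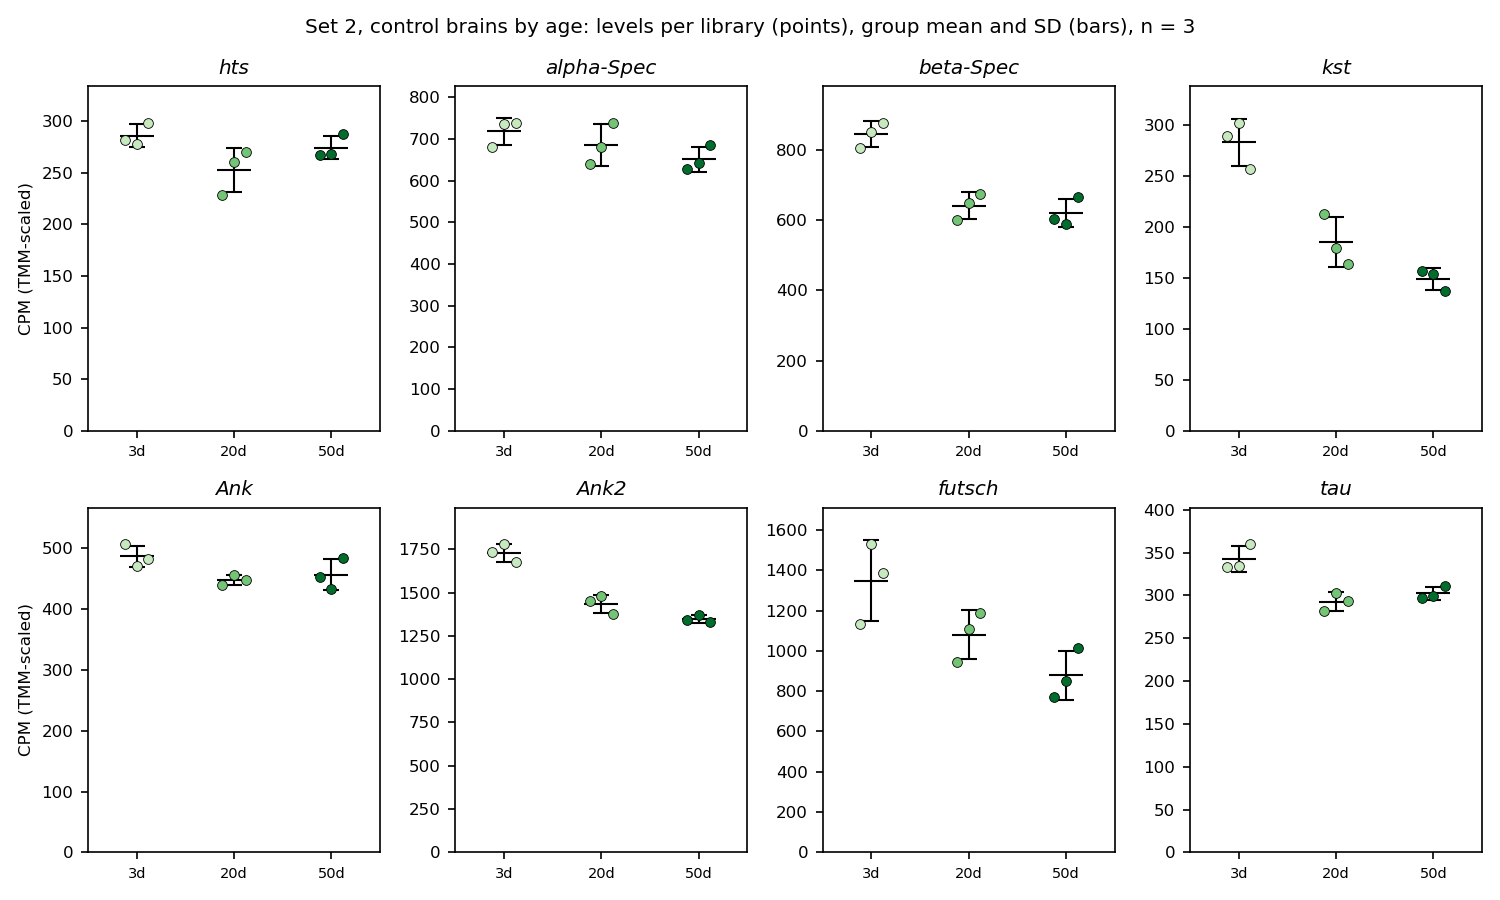
Level of each of the 8 genes in the 9 control libraries of set 2 by age, in CPM after TMM scaling on axes that start at 0. Points are libraries, and bars with whiskers are the group mean and SD (n = 3). The kst libraries stand lower at each later age, beta-Spec and Ank2 stand lower at 20d and 50d than at 3d, and the main edgeR fit called no change in hts, alpha-Spec or Ank.

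kst showed the largest change. Its libraries had 289, 302 and 257 CPM at 3d, 212, 179 and 164 CPM at 20d and 157, 154 and 137 CPM at 50d. No ages overlapped, and the log2 fold change was -0.61 ± 0.097 at 20d against 3d (edgeR, adjusted p = 0.00044), -0.92 ± 0.098 at 50d against 3d (adjusted p = 1e-05) and -0.31 ± 0.097 at 50d against 20d (adjusted p = 0.067).

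beta-Spec had 807, 853 and 877 CPM at 3d, 601, 648 and 676 CPM at 20d and 605, 590.2 and 666 CPM at 50d. The drop lay between 3d and 20d, and the 20d and 50d libraries were interspersed. Its log2 fold change was -0.40 ± 0.075 at 20d against 3d (edgeR, adjusted p = 0.0012) and -0.45 ± 0.075 at 50d against 3d (adjusted p = 0.00032). alpha-Spec had 680, 737 and 737 CPM at 3d, 639, 680 and 738 CPM at 20d and 628, 641 and 684 CPM at 50d. These groups overlapped throughout, and alpha-Spec was not called in any comparison of set 2, with log2 fold changes of -0.07 ± 0.075 at 20d against 3d (edgeR, adjusted p = 0.51) and -0.14 ± 0.075 at 50d against 3d (adjusted p = 0.14).

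Ank2 had 1737, 1778 and 1675 CPM at 3d, 1449, 1481 and 1378 CPM at 20d and 1342, 1373 and 1329 CPM at 50d. The libraries of the 3 ages did not overlap. Ank2 fell by 0.27 on the log2 scale at 20d against 3d (SE 0.068, edgeR, adjusted p = 0.0081) and by 0.36 at 50d against 3d (SE 0.068, adjusted p = 0.00083). The 20d call was lost when libraries were scaled by their totals alone (log2 fold change -0.16, edgeR, adjusted p = 0.069). Ank had 506, 471 and 482 CPM at 3d, 440.3, 456 and 448 CPM at 20d and 453, 433 and 484 CPM at 50d. Its 20d libraries lay below its 3d libraries, but it was not called, with a log2 fold change of -0.12 ± 0.065 at 20d against 3d (edgeR, adjusted p = 0.17) and -0.09 ± 0.065 at 50d against 3d (adjusted p = 0.26).

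futsch had 1132, 1528 and 1384 CPM at 3d, 946, 1109 and 1186 CPM at 20d and 773, 849 and 1014 CPM at 50d. The replicates were widely spread, and only the 50d and 3d groups were separate. futsch fell by 0.62 on the log2 scale at 50d against 3d (SE 0.13, edgeR, adjusted p = 0.0022), whereas the log2 fold change was -0.32 ± 0.13 at 20d against 3d (adjusted p = 0.074) and -0.30 ± 0.13 at 50d against 20d (adjusted p = 0.20). DESeq2 called the fall at 20d against 3d (adjusted p = 0.037), as did edgeR with a replicate block (adjusted p = 0.0050).

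tau had 333, 335 and 360 CPM at 3d, 282, 303 and 294 CPM at 20d and 297, 299 and 311 CPM at 50d. Both later ages lay below 3d. The log2 fold change was -0.23 ± 0.061 at 20d against 3d (edgeR, adjusted p = 0.011) and -0.18 ± 0.061 at 50d against 3d (adjusted p = 0.026). The 20d call was lost without 3d control replicate 3 (log2 fold change -0.17), and the 50d call without 3d control replicate 3 (-0.14) or 50d control replicate 1 or 2 (-0.17 each), and also when genes with low counts were kept in the test (-0.18). hts had 282, 277 and 298 CPM at 3d, 229, 260 and 269 CPM at 20d and 267, 268 and 287 CPM at 50d. The 20d libraries lay below the 3d libraries, but no comparison of hts passed in the main edgeR fit, with a log2 fold change of -0.18 ± 0.071 at 20d against 3d (edgeR, adjusted p = 0.068) and -0.06 ± 0.071 at 50d against 3d (adjusted p = 0.51). DESeq2 called hts lower at 20d against 3d (-0.18, adjusted p = 0.044). So did edgeR with a replicate block (-0.18, adjusted p = 0.024) and edgeR without 20d control replicate 3 (-0.22, adjusted p = 0.046).

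The 6 neuronal markers summed to 6038 to 6503 CPM at 3d, 4222 to 4641 CPM at 20d and 4026 to 4498 CPM at 50d, and 6 of 6 were called lower at 20d and at 50d than at 3d. The 6 glial markers summed to 5496 to 5830 CPM at 3d, 3550 to 3594 CPM at 20d and 3286 to 3480 CPM at 50d. Of the glial markers 3 were called lower and 1 higher at 20d against 3d, and 4 lower and 1 higher at 50d against 3d. Both sums were lower at 20d than at 3d in every library, as were all members but alpha-Spec and futsch. Of all genes 51.5% separated these ages. The 7 photoreceptor markers summed to 37000 to 39156 CPM at 3d, 41870 to 52430 CPM at 20d and 28137 to 39265 CPM at 50d. Of these 7, 3 were called higher and 3 lower at 20d against 3d. At 50d 4 were lower against 3d, and 4 against 20d. Of all genes 39.2% were called at 20d against 3d, 50.8% at 50d against 3d and 9.72% at 50d against 20d. The part of these markers in the result was not tested.

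At 20d against 3d, control brains were measured in both sets, and the age effects of the sets were compared. kst was called lower in both sets, and beta-Spec, Ank2 and tau in set 2 only. In a fit of the 12 control libraries the age effect of set 2 minus that of set 1 was -0.32 ± 0.093 on the log2 scale for beta-Spec (edgeR, adjusted p = 0.064), -0.53 ± 0.17 for futsch (adjusted p = 0.087), -0.21 ± 0.091 for tau (adjusted p = 0.17) and -0.19 ± 0.11 for Ank2 (adjusted p = 0.32). None of the 8 passed in edgeR, where 4.45% of all genes did, 1.41% upwards and 3.04% downwards. Of the 8, 3 had an unadjusted p under 0.05. DESeq2 called 2 of these, beta-Spec and futsch, but it called 1086 genes in all, against 455 in edgeR. When 1 library was left out, this comparison called between 0 and 1214 genes in all and up to 2 of the 8, both of them without set 1 20d control replicate 2 (beta-Spec -0.33, futsch -0.61). For kst the difference was 0.07 ± 0.15 (edgeR, adjusted p = 0.81). The neuronal markers also differed here, with 4 of 6 called for a deeper drop in set 2, and their part in the differences was not tested.

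Members related by function were also set against each other within each library, as ratios of CPM per kb of exon. These 5 ratios were chosen after the values of the members had been seen, and 3 libraries against 3 cannot give an exact permutation p under 0.1. The 5 were both beta spectrins over alpha-Spec, kst over beta-Spec, hts over alpha-Spec, Ank over Ank2 and futsch over tau. Over the 35 comparisons made, the smallest adjusted p was 0.17, so that none passed. hts over alpha-Spec was higher in mutants without overlap, by 1.44-fold at 20d and 1.32-fold at 3d. futsch over tau in mutants was 0.75-fold that of controls at 20d, without overlap, and 0.97-fold at 3d, with overlap.

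Both beta spectrins together, over alpha-Spec, came to 1.29, 1.31 and 1.35 in 20d mutant brains, against 1.01, 1.14 and 1.13 in 20d control brains. At 3d this ratio was 1.55, 1.55 and 1.56 in mutants, against 1.26, 1.28 and 1.29 in controls. Mutants were higher at both ages, by 1.21-fold at 20d and 1.21-fold at 3d (two-sided exact permutation test, p = 0.1 each). In set 2 the 3d libraries gave 1.50, 1.46 and 1.46, the 20d libraries 1.19, 1.16 and 1.10, and the 50d libraries 1.16, 1.11 and 1.14. It was thus lower at 20d than at 3d in mutants and in both sets of controls, without overlap, and the 20d and 50d libraries overlapped.

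The ratio of Ank to Ank2 was 5.23, 4.14 and 4.31 in 20d mutant brains, against 2.95, 3.00 and 3.23 in 20d control brains. At 3d it was 3.21, 2.88 and 3.10 in mutants, against 3.02, 2.63 and 2.96 in controls. The 20d mutants lay above all other libraries and were 1.48-fold above the 20d controls (two-sided exact permutation test, p = 0.1). kst over beta-Spec averaged 0.0942 ± 0.011 in 20d mutants against 0.0905 ± 0.0076 in 20d controls (SD, n = 3). It averaged 0.116 ± 0.0089 in 3d mutants against 0.138 ± 0.016 in 3d controls. In set 2 it averaged 0.183 ± 0.020 at 3d, 0.159 ± 0.031 at 20d and 0.132 ± 0.017 at 50d. The share of kst was therefore lower at 20d than at 3d in set 1, and lower at 50d than at 3d in set 2, without overlap.

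**Figure D4:**
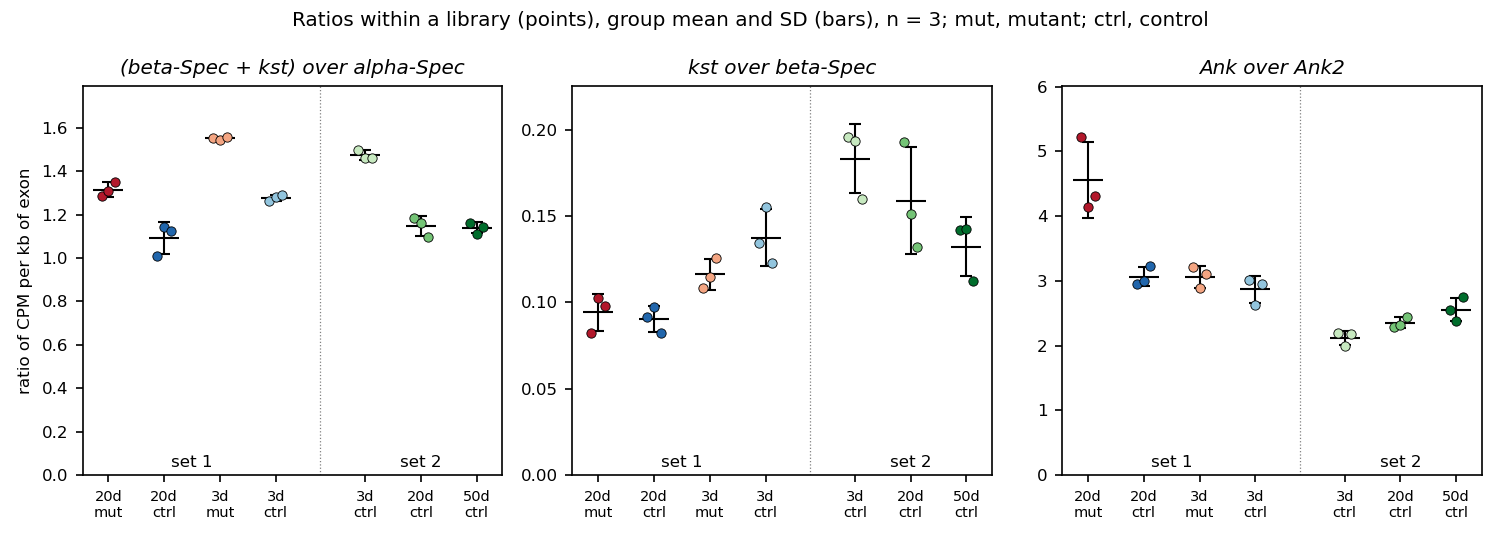
Ratios of CPM per kb of exon within each library (points), with group mean and SD (n = 3), for both beta spectrins over alpha-Spec, kst over beta-Spec, and Ank over Ank2. Set 1 is left of the dotted line and set 2 right of it, and all axes start at 0. Mutants lie above controls of the same age in the first panel, and the 20d mutants lie above all other libraries in the third.

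Other genes of these structures were taken from 4 lists. Among 23 membrane-skeleton and actin partners, 13 were higher in 3d mutants than in 3d controls and none was lower, where 16.5% of all genes were higher and 15% lower, with a median log2 fold change of 0.26 (all genes -0.02). At 20d 9 were higher and 3 lower in mutants, where 16.6% of all genes were higher and 15.4% lower, with a median of 0.06 (all genes -0.01). Nrg, the neuronal adhesion protein whose cytoplasmic tail binds ankyrin, led at both ages, with a log2 fold change of 0.71 ± 0.050 at 20d (edgeR, adjusted p = 2.4e-07) and 0.78 ± 0.050 at 3d (adjusted p = 8.9e-08). At 20d the non-muscle myosin light chain gene sqh was higher in mutants (0.63 ± 0.11, edgeR, adjusted p = 0.00085), whereas the myosin heavy chain gene zip (-0.31 ± 0.059) and shot, the spectraplakin that links actin to microtubules (-0.36 ± 0.083), were lower. shot rose with age in controls of both sets, by 0.49 ± 0.083 in set 1 and 0.47 ± 0.078 in set 2 at 20d against 3d (edgeR, adjusted p = 0.00094 and 0.00055), and in 50d against 3d brains by 0.72 ± 0.078 (adjusted p = 1e-05). It rose with age in mutants as well, by 0.32 ± 0.083 on the log2 scale (edgeR, adjusted p = 0.0063). Tm1, a tropomyosin, fell by 0.31 and 0.49 on the log2 scale at 20d in set 1 and set 2 controls (edgeR, adjusted p = 0.0017 and 6.1e-05).

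Of the 38 tubulin and microtubule regulator symbols listed, 34 were found and 33 were tested. In 20d mutants 4 were higher and 8 lower than in 20d controls, in all 12 of 33 where 32.1% of all genes were called. In 3d mutants 7 were higher and 3 lower than in 3d controls, in all 10 of 33 where 31.4% were called. These shares are near the background. The counts also moved with single libraries. At 20d 5 were lower without 20d control replicate 3 or 20d mutant replicate 2. At 3d 4 were higher without 3d control replicate 3 or 3d mutant replicate 1, and 1 was lower without 3d control replicate 1 or 3 or 3d mutant replicate 2 or 3. With age 6 were higher and 12 lower in mutants, where 22.8% of all genes were higher and 23.2% lower, and in set 2 controls 5 were higher and 12 lower at 20d, where 19.3% were higher and 19.9% lower. In set 1 controls 5 were higher and 7 lower with age, where 11.3% were higher and 13.3% lower. There, 2 were higher without 3d control replicate 1 or 3 or 20d control replicate 3, 3 were higher without 3d control replicate 2, and 4 were lower without 3d control replicate 1. Under scaling by library totals alone 10 were higher and 3 lower in set 1 controls, and 6 were lower in mutants. The alpha tubulin gene alphaTub84D fell with age by 0.85 on the log2 scale in mutants (SE 0.046, edgeR, adjusted p = 2.6e-08) and by 0.43 in set 1 controls (SE 0.046, adjusted p = 3.4e-05). In set 2 it fell by 0.58 at 20d and by 0.87 at 50d against 3d (SE 0.052 each, edgeR, adjusted p = 7.3e-06 and 1.3e-07). A minor beta tubulin gene, betaTub60D, rose at 50d against 3d by 1.50 ± 0.13 (edgeR, adjusted p = 2.2e-06), to 20.4 CPM, and HDAC6, a tubulin deacetylase, by 0.55 ± 0.058 (adjusted p = 8.9e-06).

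Among 25 motor genes of the kinesin and dynein families, 15 fell and none rose with age in mutants, where 23.2% of all genes fell. Without 3d mutant replicate 1, 7 fell, and without 3d mutant replicate 2 or 20d mutant replicate 2, 9 fell. In set 1 controls 8 fell and 3 rose, where 13.3% of all genes fell and 11.3% rose, with 4 falling without 3d control replicate 3 and 5 without 20d control replicate 3. In set 2, 13 fell and none rose at 20d against 3d, where 19.9% of all genes fell, with 8 falling without 3d control replicate 3. At 50d 14 fell and 1 rose against 3d, where 24.9% of all genes fell and 25.9% rose. Between 20d and 50d edgeR called none of the 25, with a median log2 fold change of -0.01 (all genes 0.00), and DESeq2 called 2 lower. Under scaling by library totals alone the motors that fell numbered 5 in mutants, 2 in set 1 controls, 6 at 20d against 3d in set 2 and 5 at 50d against 3d. The median log2 fold change was -0.18 in mutants (all genes 0.02), -0.06 in set 1 controls (0.00) and -0.20 at 50d against 3d (0.02). The kinesin-2 genes Klp64D and Klp68D fell by 0.50 and 0.46 on the log2 scale with age in mutants (edgeR, adjusted p = 1e-05 and 2e-05). Between genotypes, 6 motors were higher in 3d mutants, where 16.5% of all genes were, and 3 were without 3d mutant replicate 1 or under library totals. The 6 were led by the synaptic vesicle kinesin unc-104 (0.36 ± 0.065, edgeR, adjusted p = 0.0011). In 20d mutants 1 motor was higher and 6 were lower, where 16.6% of all genes were higher and 15.4% lower. Without 20d control replicate 2, 3 motors were higher, and without 20d mutant replicate 1, 2 were. Of the 6 that were lower, the cytoplasmic dynein heavy chain gene Dhc64C differed most from 20d controls (log2 fold change -0.47 ± 0.061, edgeR, adjusted p = 5.3e-05). In set 1 controls Dhc64C rose with age, by 0.36 ± 0.061 on the log2 scale (edgeR, adjusted p = 0.00092), the most of the motors called there. The neuronal markers named above moved in the same age comparisons as the motors, a relation that was not tested.

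Futsch protein is repressed by the RNA-binding protein Fmr1 in Drosophila and acts in the growth of synapses downstream of BMP signalling. Of 15 genes around these steps, 3 were higher and 2 lower in 3d mutants than in 3d controls, and 2 were higher and 1 lower in 20d mutants than in 20d controls. Of all genes 31.4% were called at 3d, near the share of 5 in 15, and 32.1% at 20d, above the share of 3 in 15. At 3d 1 was lower without 3d control replicate 2 or any one of the 3d mutant replicates. At 20d 1 was higher without replicate 2 or 3 of either 20d group, and 2 were lower without 20d control replicate 1 or 2. Their median log2 fold change was 0.08 at 3d (all genes -0.02) and -0.01 at 20d (-0.01). Fmr1 was lower in mutants at both ages, with a log2 fold change of -0.48 ± 0.064 at 20d (edgeR, adjusted p = 6.7e-05) and -0.25 ± 0.064 at 3d (adjusted p = 0.0083). nwk, which encodes a synaptic F-BAR protein that restrains BMP-driven growth, was higher in 3d mutants (0.41 ± 0.067, edgeR, adjusted p = 0.00049) and fell with age in mutants by 0.65 on the log2 scale (SE 0.067, adjusted p = 4.4e-06). In set 2 nwk fell by 0.67 at 20d and by 0.98 at 50d against 3d (edgeR, adjusted p = 6.6e-05 and 1.4e-06), and gbb, the BMP ligand of the fly synapse, rose by 0.62 ± 0.075 at 50d (adjusted p = 2.7e-05).

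The genes whose log2 CPM followed hts most closely over the 12 libraries of set 1 were Tango1 (Pearson's r = 0.980), which encodes a secretory pathway protein, Unc-115a (r = 0.975), an actin-binding protein gene, and CG11537 (r = 0.973). These libraries share the group differences by which hts varies. Over the 9 control libraries of set 2 the same correlations were 0.579, 0.222 and 0.605. Tango1 averaged 143 ± 6.97 CPM in 20d mutants against 109.9 ± 0.93 CPM in 20d controls (SD, n = 3). At 3d it averaged 167 ± 8.05 CPM in mutants against 113 ± 4.93 CPM in controls. Among the 8 genes themselves, hts was closest to tau (r = 0.917 in set 1 and 0.801 in set 2), and alpha-Spec to futsch (r = 0.904 and 0.922).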

How the data were processed

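Raw whole-number counts per gene in 21 brain libraries were used as the authors deposited them. The authors aligned reads with HISAT2 at default parameters, counted them per gene with HTSeq against FlyBase annotation, and tested them with DESeq2. The releases that the methods give for genome and annotation differ. All columns were matched by name, and 0 columns were left unused. No pair of replicates among the 21 compared was as alike as sampling noise allows (chi-square per degree of freedom 5.98 to 58.7).

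TMM factors, CPM and the quasi-likelihood test (robust, 1 mean per group, 1 fit per set) came from edgeR 4.0.16 in R 4.3.3. The filter filterByExpr (minimum count 10) left 9961 genes in set 1, 10525 in set 2 and 10221 in the fit of 3d and 20d controls of both sets. Calls are at a Benjamini-Hochberg adjusted p under 0.05 over these genes. Standard errors are the log2 fold change over the square root of its F statistic. Ratios were compared by exact permutation tests (scipy 1.17.1, Python 3.11.15). Exon lengths came from Ensembl release 115 (BDGP6.54), matched by FlyBase identifier.

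The members and lists were chosen with earlier results of these data known. The text names all 8 members, from each list at most 2 genes per direction and comparison, those called with the biggest log2 fold change, and the 3 genes most correlated with hts. Alternatives were DESeq2 1.42.0, RLE factors, library totals, other count filters, fits of the compared groups alone, a replicate block, coding length, and each library left out in turn. Tests were checked on simulated counts. Seed matches of miR-34 were not analysed here.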

Additional observations from a re-analysis of the deposited data

Results flagged for a closer look

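For 4 genes the difference between mutants and controls was not the same at both ages, by a test of that change itself (the interaction term of the edgeR fit). The change on the log2 scale, 20d minus 3d, was 0.33 for Ank, -0.35 for beta-Spec, -0.31 for alpha-Spec and -0.61 for futsch. All of them kept this sign when any 1 of the 12 libraries was left out.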

How the results depend on the processing

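No member that was called in a comparison changed sign there under any setting tried. Of 488 single-gene values under other settings, 455 kept their direction and side of the threshold. Scaling by library totals alone moved most of the rest. It shifted the median log2 fold change of all genes to 0.13 (20d against 3d controls, set 1), 0.16 (20d against 3d mutants), 0.12 (20d against 3d, set 2) and 0.17 (50d against 3d), where TMM left at most 0.02. The members called under it numbered 3 with age in set 1 controls (1 under TMM), 3 with age in mutants (7) and 2 at 20d against 3d in set 2 (4). Uncalled members turned sign under it, namely Ank (-0.0035) in 3d mutants against 3d controls, hts (0.065), beta-Spec (0.050), Ank2 (0.052) and tau (0.11) at 20d against 3d in set 1 controls, alpha-Spec (0.039) at 20d against 3d in set 2, and hts (0.091), alpha-Spec (0.0095) and Ank (0.059) at 50d against 3d. At 3d the futsch call was also lost (0.24), and in set 2 Ank2 was lost at 20d (-0.16) and tau at 20d and 50d (-0.12 and -0.03). DESeq2 called 1 member (kst) at 50d against 20d and 2 (beta-Spec and futsch) for the age effect by set, where edgeR called 0. Over all genes DESeq2 called 1356 and 1086 in these comparisons, against 1023 and 455 in edgeR. It also called 6 instead of 4 at 20d against 3d in set 2 (hts and futsch gained) and 8 instead of 7 with age in mutants (Ank2 gained). Ank2 with age in mutants was also called without the low-count filter (-0.21) and with only the groups compared (-0.20), and under library totals Ank2 was called lower in 20d mutants than in 20d controls (-0.23).

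Replicate numbers were not taken to pair the libraries, since in no comparison were all correlations of same-numbered deviations over 0.1 (range -0.16 to 0.33). This rule cannot exclude pairing. The mean correlation was 0.18 in 20d mutants against 20d controls and 0.22 at 50d against 20d. A replicate block called 2 members (kst and futsch) at 50d against 20d instead of 0, and 1282 genes in all instead of 1023. It called 6 instead of 4 at 20d against 3d in set 2 (hts and futsch gained) and changed no other call. Leaving out 1 library gave 1 to 2 members called with age in set 1 controls, 0 to 1 at 50d against 20d and 0 to 2 for the age effect by set. Over these fits the log2 fold change of Ank2 in 3d mutants ranged from -0.10 to 0.011, that of tau with age in set 1 controls from -0.057 to 0.035, that of Ank at 50d against 20d from -0.017 to 0.064, the interaction of kst from -0.14 to 0.066 and its age effect by set from -0.043 to 0.15. Calls were gained by futsch with age in set 1 controls (0.30) without 20d control replicate 2, Ank2 with age in mutants (-0.27) without 20d mutant replicate 3, and kst at 50d against 20d (-0.39) without 20d control replicate 3. In set 2 at 20d against 3d, hts gained a call without 20d control replicate 3 (-0.22) and futsch without 3d control replicate 1 (-0.41).

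Per kb of coding sequence the 20d mutant levels were 48.7 for hts, 93.0 for alpha-Spec, 112 for beta-Spec, 163 for Ank, 30.4 for Ank2, 61.8 for futsch and 118 for tau. Seed matches of miR-34 were planned and not run. With 3 libraries per group, changes smaller than the spread between replicates were not detectable.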
